A study of Mus musculus with 12 samples.

Results

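A set of 10 genes of fatty acid uptake and of the Pparg program were examined among 52636 annotated genes in livers of 16-week-old male C57Bl/6J mice. The 10 genes were taken by symbol: Pparg, Cd36, Lpl, Vldlr, Mogat1, Fabp1, Fabp2, Fabp4, Slc27a2 and Slc27a5. The VDD-F1 offspring (n = 6) had mothers fed a vitamin D deficient diet, supplemented with calcium gluconate, from before mating until delivery. The VDS-F1 offspring (n = 6) had mothers fed a nutrient-matched vitamin D sufficient diet over the same time, and the study describes that supplement for the deficient diet only, so it cannot be told apart from the lack of vitamin D. All mothers ate the sufficient diet after delivery, all offspring ate it from weaning onward, and no genetic alteration was part of the design. Each library came from the total liver RNA of 1 mouse, and mice are named here by group and sample number (VDD1 to VDD6 and VDS1 to VDS6). The comparison asked whether prenatal vitamin D deficiency left a difference in the adult liver. Litters are not given in the sources used here, so p-values measure the spread between these mice, some of which may be littermates.

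Hepatocytes take up fatty acids that circulate bound to albumin and fatty acids that lipases release from lipoproteins. Membrane proteins such as CD36 and the transport proteins of the Slc27 family aid their entry, and binding proteins of the Fabp family carry them through the cytoplasm. Pparg encodes a nuclear receptor that binds DNA as a heterodimer with a retinoid X receptor; it is abundant in adipocytes and low in normal liver, and in fatty livers it raises genes for lipid uptake and storage.

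The libraries held 14275793 to 20815066 fragments counted on genes, of 25897868 to 36403413 fragments sequenced. Of the 10 genes, 9 reached a mean of 12 counts per library and were tested among 12453 such genes. Mogat1, with a mean of 11.7 counts, did not. Levels are given in counts per 1000000 (CPM) after TMM scaling of library sizes, which allows a gene to be compared between mice. In VDS6, 11.1% of fragments met no annotated exon on the strand that was counted, against 2.52% to 4.94% in the other libraries. The 8 hepatocyte markers summed to 90164 to 107123 CPM in VDD-F1 and 79189 to 97387 CPM in VDS-F1, most of it albumin (Alb) at means of 73310 and 62152 CPM. Of the 8, 6 had a positive and 2, Hnf4a and Cps1, a negative log2-fold change, with Hnf4a at -0.29 (edgeR adjusted p = 0.301) and Cps1 at -0.14 (edgeR adjusted p = 0.487). The adipocyte genes Retn and Lep had 0 counts in all 12 libraries, and Adipoq had 1 count in all. Bulk RNA cannot tell fewer cells of a type from less RNA per cell.

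No member passed the threshold of the main comparison. With edgeR's quasi-likelihood test and Benjamini-Hochberg adjustment over all genes, 0 of 9 members had both an adjusted p under 0.05 and a log2-fold change beyond 1 in either direction, where 0.0402% of all genes tested did. At an unadjusted p under 0.05 stood 3 of the 9, Lpl, Cd36 and Pparg, against 15.8% of all genes. All 3 were higher in VDD-F1, a direction in which 9.55% of all genes passed, while 0 members and 6.29% of all genes passed in the other direction. DESeq2 called 1 member, Lpl, where it called 2.03% of all genes, and limma voom with sample quality weights, used wherever voom is named here, also called 1, again Lpl, where it called 2.02%. The median log2-fold change of the 9 members was 0.38, with 7 above 0 and 2 below, and that of all genes tested was 0.0041 on the log2 scale. The 2 groups overlapped in all 10 members, whereas 1.18% of all genes had groups that did not overlap.

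**Figure D1:**
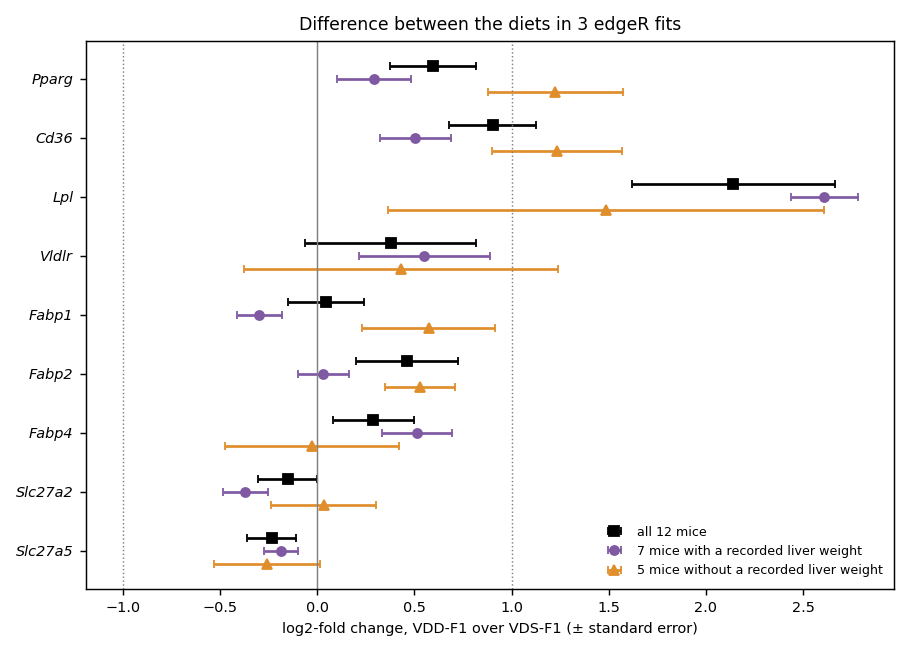
Log2-fold change of VDD-F1 over VDS-F1 for the 9 members tested, with 1 standard error on each side, from the edgeR fit over all 12 libraries and from separate fits within the 7 mice that have a liver weight on record and within the 5 that have none. Lpl lies farthest from 0 at 2.14, Cd36 follows at 0.90, and Slc27a2 and Slc27a5 lie below 0.

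Lpl (ENSMUSG00000015568.16, chromosome 8, 68880491 to 68907448, plus strand, GRCm38) encodes lipoprotein lipase, which frees fatty acids from circulating triglyceride and is low in the normal adult liver. In VDD-F1 its level was 12.4 CPM in VDD1, 139 in VDD2, 10.003 in VDD3, 84.5 in VDD4, 87.0 in VDD5 and 97.4 in VDD6. In VDS-F1 the lowest level was 10.5, the median 17.4 and the highest 19.8 CPM. In VDD-F1, 4 livers were thus above every VDS-F1 liver, while VDD1 and VDD3 lay inside or below the VDS-F1 range. The means were 71.7 ± 50.9 CPM (SD, n = 6) in VDD-F1 and 16.3 ± 3.96 CPM (SD, n = 6) in VDS-F1. The SD was 70.9% of the mean in VDD-F1 and 24.4% in VDS-F1. The log2-fold change was 2.14 (SE 0.52), 4.41-fold, with an edgeR adjusted p of 0.0918. Lpl passed under DESeq2 (adjusted p = 0.0121) and under limma voom (adjusted p = 0.0499). Without VDD1 it passed in edgeR with an adjusted p of 0.0145, and without VDD3 with 0.0307. Without VDD2, the highest liver, the log2-fold change was 1.84 with an edgeR adjusted p of 0.177.

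**Figure D2:**
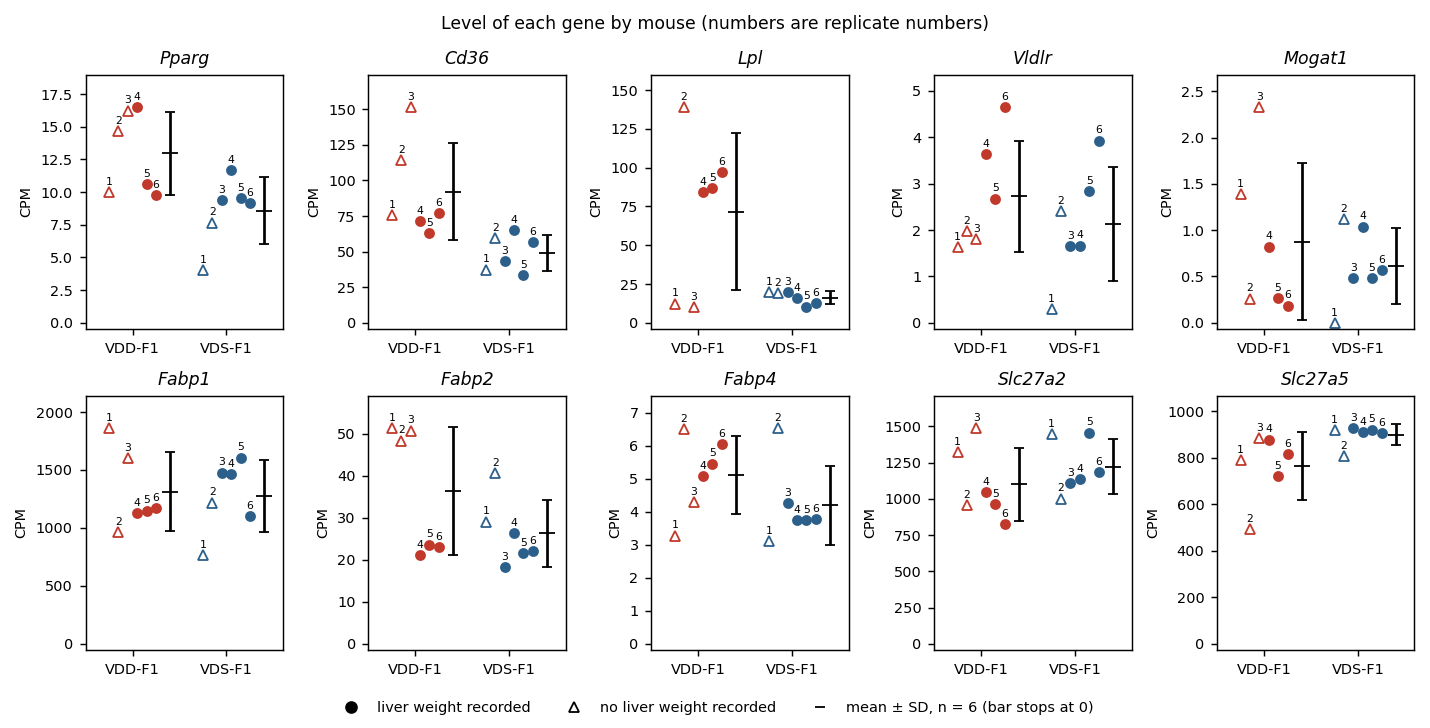
CPM of each of the 10 members in each mouse, with VDD-F1 and VDS-F1 side by side on a linear axis, and with the mean ± SD of each group (n = 6, lower bars end at 0). Circles are mice with a recorded liver weight and triangles mice without. Lpl is split within VDD-F1 into 4 high and 2 low livers, and every member overlaps between groups.

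Cd36 (ENSMUSG00000002944.15, chromosome 5, 17781690 to 17888801, minus strand) encodes a scavenger receptor that binds long-chain fatty acids at the cell surface. Its lowest, median and highest levels were 63.0, 76.4 and 152 CPM in VDD-F1 and 33.7, 49.8 and 64.9 CPM in VDS-F1. In VDD-F1, 5 of 6 livers exceeded the highest VDS-F1 liver, and 5 of 6 VDS-F1 livers lay under the lowest VDD-F1 liver, so that the overlap came from VDD5 and VDS4. The means were 92.1 ± 34.1 CPM and 49.1 ± 12.8 CPM (SD, n = 6 each). The log2-fold change was 0.90 (SE 0.22), 1.87-fold, with an edgeR adjusted p of 0.0948. DESeq2 gave an adjusted p of 0.00654 for the same log2-fold change, and 4.05% of all genes were under 0.05, but this change is below the fold threshold of the calls. Without VDD1, the edgeR adjusted p was 0.0431 at a log2-fold change of 0.96.

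Cd36 and Lpl did not order the mice alike. VDD3 had the highest Cd36 of the 12 livers, 152 CPM, and the lowest Lpl, 10.003 CPM. VDD5, whose Cd36 was the lowest of VDD-F1, had 87.0 CPM of Lpl.

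Pparg (ENSMUSG00000000440.12, chromosome 6, 115360951 to 115490399, plus strand) was counted over all its transcripts, so its isoforms cannot be told apart in these counts. The lowest, median and highest levels were 9.78, 12.6 and 16.5 CPM in VDD-F1. In VDS-F1 they were 4.04, 9.27 and 11.7 CPM. In VDS-F1, 5 of 6 livers lay below the lowest VDD-F1 liver, and VDS4, at 11.7 CPM, lay above 3 of them. The means of 13.0 ± 3.18 and 8.58 ± 2.57 CPM (SD, n = 6 each) gave a log2-fold change of 0.59 (SE 0.22), 1.51-fold, with an edgeR adjusted p of 0.220. It passed under none of the 24 other settings, which included DESeq2 (adjusted p = 0.140).

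Promoter windows are shown for Pparg and Cd36, both with an unadjusted p under 0.05, and for Fabp1, which holds the longest motif match. The windows run from 250 bases before to 50 bases after a transcription start in RefSeq (GRCm38.p6), and 7 of 10 members had at least 1, for 10 windows in all. Lpl, Fabp4 and Slc27a5 are named without a window. Both strands were searched for AGGTCA, the repeat unit of many nuclear receptor sites, and for its direct repeat with a spacer of 1 base, the class of site that Pparg with its partner is known to bind. Capitals mark the matches, and a match on the minus strand of a window reads TGACCT.

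Pparg, chr6:115362099-115362398, plus strand: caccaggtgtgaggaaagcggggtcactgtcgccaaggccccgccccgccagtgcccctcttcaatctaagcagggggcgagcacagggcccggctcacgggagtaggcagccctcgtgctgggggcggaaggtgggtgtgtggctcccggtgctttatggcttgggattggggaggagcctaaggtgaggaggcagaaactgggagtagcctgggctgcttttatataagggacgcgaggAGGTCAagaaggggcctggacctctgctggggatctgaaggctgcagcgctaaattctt

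Cd36, chr5:17835847-17836146, minus strand: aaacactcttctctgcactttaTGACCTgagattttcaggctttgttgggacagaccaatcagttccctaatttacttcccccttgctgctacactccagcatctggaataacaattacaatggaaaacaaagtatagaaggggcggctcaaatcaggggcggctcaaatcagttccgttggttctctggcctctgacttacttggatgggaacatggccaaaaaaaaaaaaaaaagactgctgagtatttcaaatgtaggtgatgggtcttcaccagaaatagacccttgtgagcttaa

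Fabp1, chr6:71199629-71199928, plus strand: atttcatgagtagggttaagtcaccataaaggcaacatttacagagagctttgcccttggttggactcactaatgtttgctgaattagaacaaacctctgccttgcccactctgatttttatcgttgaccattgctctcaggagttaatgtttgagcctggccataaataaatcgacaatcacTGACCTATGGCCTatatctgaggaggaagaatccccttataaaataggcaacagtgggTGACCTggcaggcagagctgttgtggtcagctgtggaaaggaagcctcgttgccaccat

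The full repeat AGGTCANAGGTCA was in 0 of the 10 windows and in 0.0396% of all 32851 windows. The looser form AGGNCANAGGNCA was in 1 window, that of Fabp1, and in 0.381% of all windows. Its match, TGACCTATGGCCT, starts 67 bases before the start site and includes an AGGTCA match on the same strand, and a second AGGTCA match lies nearer the start. AGGTCA alone also stood in the Cd36 window, in the Pparg window shown, in another of the Pparg windows and in that of Slc27a2, and 16.3% of all windows held it. These matches describe letters in the windows and carry no measurement of binding.

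Vldlr (ENSMUSG00000024924.14, chromosome 19, 27216484 to 27254231, plus strand) encodes the very low density lipoprotein receptor, which takes up triglyceride-rich particles. Its levels were 1.64, 2.33 and 4.66 CPM (lowest, median, highest) in VDD-F1 and 0.296, 2.04 and 3.93 CPM in VDS-F1. The groups overlapped over most of their range, and the lowest value, in VDS1, rested on 6 counts. The log2-fold change was 0.38 (SE 0.44), and its edgeR adjusted p was 0.717.

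Mogat1 (ENSMUSG00000012187.13, chromosome 1, 78510991 to 78538173, plus strand) encodes a monoacylglycerol acyltransferase, an enzyme that makes diacylglycerol. Its counts were 22, 5, 31, 12, 5 and 4 in VDD1 to VDD6 and 0, 19, 7, 20, 7 and 8 in VDS1 to VDS6. For comparison, 3 counts, about the upper 95% Poisson limit of a count of 0 for counting error only, correspond to 0.140 to 0.226 CPM in these libraries. The highest levels were 2.33 CPM in VDD3 and 1.39 CPM in VDD1, and the lowest in VDD-F1 was 0.186 CPM in VDD6. The means were 0.875 ± 0.850 CPM and 0.616 ± 0.412 CPM (SD, n = 6 each). A two-sided exact permutation test over the 924 splits of the mice gave p = 0.543 for the difference of 0.259 CPM, and the smallest p it allows is 0.00216.

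Among the binding proteins, Fabp1 (ENSMUSG00000054422.7, chromosome 6, 71199827 to 71205023, plus strand) is the liver form. Its levels were 963, 1161 and 1862 CPM (lowest, median, highest) in VDD-F1 and 765, 1343 and 1607 CPM in VDS-F1. The VDD-F1 median was below and the VDD-F1 mean above that of VDS-F1, and the log2-fold change was 0.045 (SE 0.19) with an edgeR adjusted p of 0.940. Its sign turned under limma voom, at -0.12.

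Fabp2 (ENSMUSG00000023057.5, chromosome 3, 122895072 to 122899506, plus strand), the intestinal form, is also expressed in liver. Its levels were 51.4, 48.4 and 50.8 CPM in VDD1 to VDD3 and 21.1, 23.6 and 23.1 CPM in VDD4 to VDD6. In VDS-F1 they were 29.1 and 40.7 CPM in VDS1 and VDS2, and 18.3 to 26.4 CPM in VDS3 to VDS6. Each group thus held livers at a higher and at a lower level. The log2-fold change between the diets was 0.46 (SE 0.26), with an edgeR adjusted p of 0.413.

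Fabp4 (ENSMUSG00000062515.3, chromosome 3, 10204088 to 10208576, minus strand) is the form of adipocytes and macrophages. Its levels were 3.28, 5.27 and 6.52 CPM in VDD-F1 and 3.11, 3.77 and 6.54 CPM in VDS-F1 (lowest, median, highest). VDS2, the highest of all 12, stood apart from the other VDS-F1 livers, which reached 4.26 CPM. The log2-fold change was 0.29 (SE 0.21), with an edgeR adjusted p of 0.530.

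The 2 Slc27 members encode proteins with acyl-CoA synthetase activity, and Slc27a5 also acts on bile acids. Slc27a2 (ENSMUSG00000027359.16, chromosome 2, 126552407 to 126588243, plus strand) ranged from 829 to 1489 CPM in VDD-F1, with a median of 1005, and from 1002 to 1458 CPM in VDS-F1, with a median of 1161. Its log2-fold change was -0.15 (SE 0.15), with an edgeR adjusted p of 0.666. Slc27a5 (ENSMUSG00000030382.15, chromosome 7, 12988346 to 12998192, minus strand) ranged from 494 to 886 CPM in VDD-F1, with a median of 801, and from 808 to 927 CPM in VDS-F1, with a median of 914. The SD of Slc27a5 was 19.0% of the mean in VDD-F1 and 5.02% in VDS-F1, and VDD2 was its lowest liver. Its log2-fold change was -0.23 (SE 0.13), with an edgeR adjusted p of 0.388.

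Compared per length of annotated exon, as transcripts per 1000000 (TPM, not TMM scaled), the members differed widely in VDS-F1. Fabp1 was highest at 4013 ± 1159 TPM (SD, n = 6), above Slc27a5 at 657 ± 164 and Slc27a2 at 576 ± 160 TPM, which overlapped each other. Fabp2 at 50.3 ± 23.3 TPM and Cd36 at 24.99 ± 9.99 TPM also overlapped each other. Below them followed Pparg at 5.09 ± 1.98, Lpl at 2.89 ± 1.202, Fabp4 at 1.68 ± 0.685, Mogat1 at 0.717 ± 0.591 and Vldlr at 0.345 ± 0.173 TPM, each overlapping the next. In VDD-F1 the order was the same except that Lpl, at 14.9 ± 11.7 TPM, stood above Pparg, at 8.74 ± 2.10 TPM, and the 2 overlapped. Exon length was taken over all annotated transcripts, 10478 bases for Lpl, 10068 for Vldlr and 4489 for Fabp4, whose exons in this annotation cover the whole gene. Where shorter transcripts prevail, TPM on these lengths is too low, so the places of these 3 genes in the order are uncertain.

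**Figure D3:**
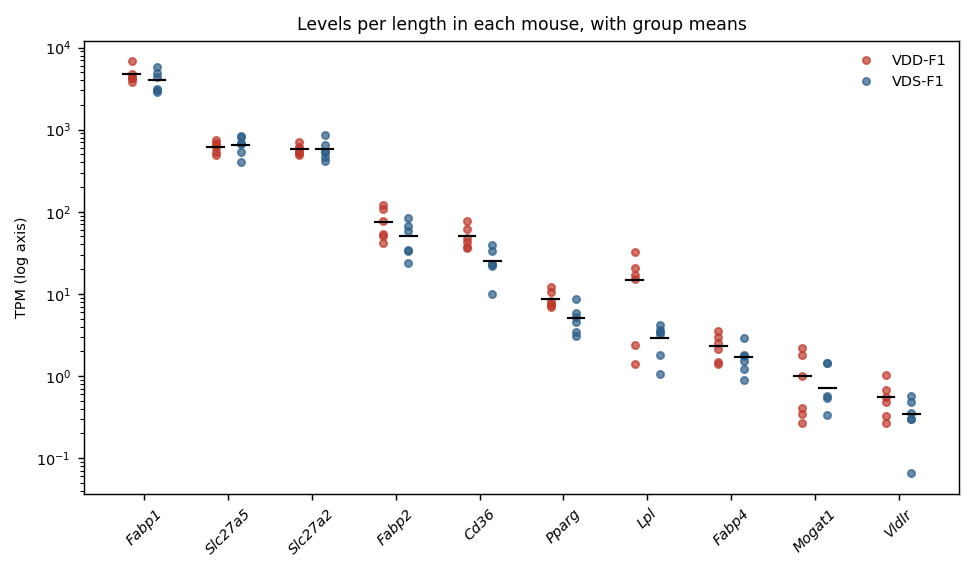
TPM of the 10 members in each mouse on a log10 axis, with VDD-F1 and VDS-F1 side by side, horizontal lines at the group means and the members ordered by their VDS-F1 mean; Mogat1 in VDS1, at 0 counts, is not drawn. Levels run from 4013 TPM for Fabp1 to 0.345 TPM for Vldlr in the VDS-F1 means.

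Some mice stood at the end of the range in several members. VDS1 had the lowest CPM of the 12 livers in 5 of 10 members, Pparg, Vldlr, Mogat1, Fabp1 and Fabp4. VDD3 had the highest in 3, Cd36, Mogat1 and Slc27a2. VDD2 had the highest Lpl and the lowest Slc27a5.

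The study's supplement records a liver weight for 7 of the mice (3 VDD-F1, VDD4 to VDD6, with 4 VDS-F1, VDS3 to VDS6) but has no such entry for the other 5. The mouse names there were assumed to be those of the sample titles, and every value by set rests on this. These sets are not in the sample labels and what set them apart is not stated, so they are treated as a possible batch. Within the 7 mice, Lpl was 84.5 to 97.4 CPM in VDD-F1 and 10.5 to 19.8 CPM in VDS-F1. There its log2-fold change was 2.61 (SE 0.17), with an edgeR adjusted p of 4.00e-06. It was the 1 member of 9 called in that set, where 4.30% of all genes were. At an unadjusted p under 0.05, 5 of 9 members stood in the 7 mice against 25.5% of all genes, and 3 of 9 in the 5 mice against 3.79% of all genes. Within the other 5 mice, Lpl was 12.4, 139 and 10.003 CPM in VDD-F1 and 19.7 and 19.1 CPM in VDS-F1, and the log2-fold change was 1.49 (SE 1.12) with an edgeR adjusted p of 0.999. The difference between the sets, 1.13 (SE 1.03), was not significant (edgeR adjusted p of the interaction = 0.826).

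Cd36 and Pparg had larger log2-fold changes in the 5 mice than in the 7. For Cd36 they were 1.24 (SE 0.33) and 0.50 (SE 0.18), and for Pparg 1.23 (SE 0.35) and 0.29 (SE 0.19). Fabp1 had 0.58 (SE 0.34) in the 5 and -0.30 (SE 0.12) in the 7. Not one of these passed after adjustment in either set. The diet by set interaction had an unadjusted edgeR p of 0.0338 for Pparg, 0.0236 for Fabp1 and 0.0408 for Fabp2, and 0.0879 for Cd36, while 9.01% of all genes lay under 0.05. After adjustment 0 of 9 members passed, against 0.0883% of all genes, and the lowest adjusted p of the 9 was 0.468.

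Fabp2 differed between the sets of mice. It was 18.3 to 26.4 CPM in the 7 mice and 29.1 to 51.4 CPM in the 5. With diet in the model its log2-fold change of the 7 over the 5 was -0.92 (SE 0.12), with an edgeR adjusted p of 0.0019, where 2.46% of all genes had an adjusted p under 0.05. Fabp2 was the 1 member that passed. This coefficient was examined after the data had been seen.

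The livers with high Lpl also stood apart in recruited macrophage markers and in some genes with a sex bias. The 6 markers of recruited macrophages, Trem2 and Gpnmb among them, summed to 176 CPM in VDD2, 90.2 in VDD4, 87.1 in VDD5 and 75.1 in VDD6. The sum was 31.5 in VDD1, 49.4 in VDD3 and 24.4 to 55.3 CPM in VDS-F1. Ccr2, Trem2 and Gpnmb reached the count filter only through VDD-F1, so their tests are not given. Itgax, Cd9 and Spp1 had log2-fold changes of 2.33, 0.68 and 0.83, with edgeR adjusted p of 0.0918, 0.112 and 0.275. Gpnmb, a glycoprotein of lipid-laden macrophages, was 45.3, 18.6, 16.8 and 7.40 CPM in VDD2, VDD4, VDD5 and VDD6, and at most 1.43 CPM in the other 8 livers. Cyp2a4, a female-biased hepatic gene, was 25.2 to 40.3 CPM in those 4 livers and 0 to 0.42 CPM in the other 8. The male-biased Mup7, a major urinary protein gene chosen after its values were seen, was 6.62 to 24.4 CPM in the 4 and 242 to 1603 CPM in the other 8. Of the 9 female-biased genes listed, Cyp2a4 alone reached the count filter, through the 4 livers where it was high, so its test is not given either. All 9 male-biased genes were tested and had a negative log2-fold change, 5 of them at an unadjusted p under 0.05 against 6.29% of all genes, and edgeR called 1, Mup1, against 0.0402% of all genes. The summed macrophage markers, 148 to 353 CPM in VDD-F1 and 173 to 290 in VDS-F1, overlapped, as did the endothelial ones, 230 to 286 and 216 to 311 CPM. In each of these lists of 8, 1 marker was higher and 2 were lower in VDD-F1 at an unadjusted edgeR p under 0.05, against 9.55% and 6.29% of all genes. The stellate markers summed to 669, 465 and 421 CPM in VDD2, VDD4 and VDD5, and to at most 417 CPM in the other 9 livers. The cholangiocyte markers summed to 48.9, 40.7 and 35.1 CPM in the same 3 livers, and to at most 26.8 CPM in the other 9. All 8 stellate and all 4 tested cholangiocyte markers had a positive log2-fold change, and 2 of each list had an unadjusted edgeR p under 0.05 against 9.55% of all genes. DESeq2 called 1 stellate marker and 0 cholangiocyte markers. Lymphocyte markers summed to 0.677 to 10.2 and 1.53 to 4.12 CPM, and blood and muscle markers to 256 to 661 and 222 to 1293 CPM. The 6 adipocyte markers, of which 4 had any count, summed to 1.199 to 9.55 CPM in VDD-F1 and 2.91 to 10.02 CPM in VDS-F1. The part of these cells and genes in the Lpl values was not tested.

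**Figure D4:**
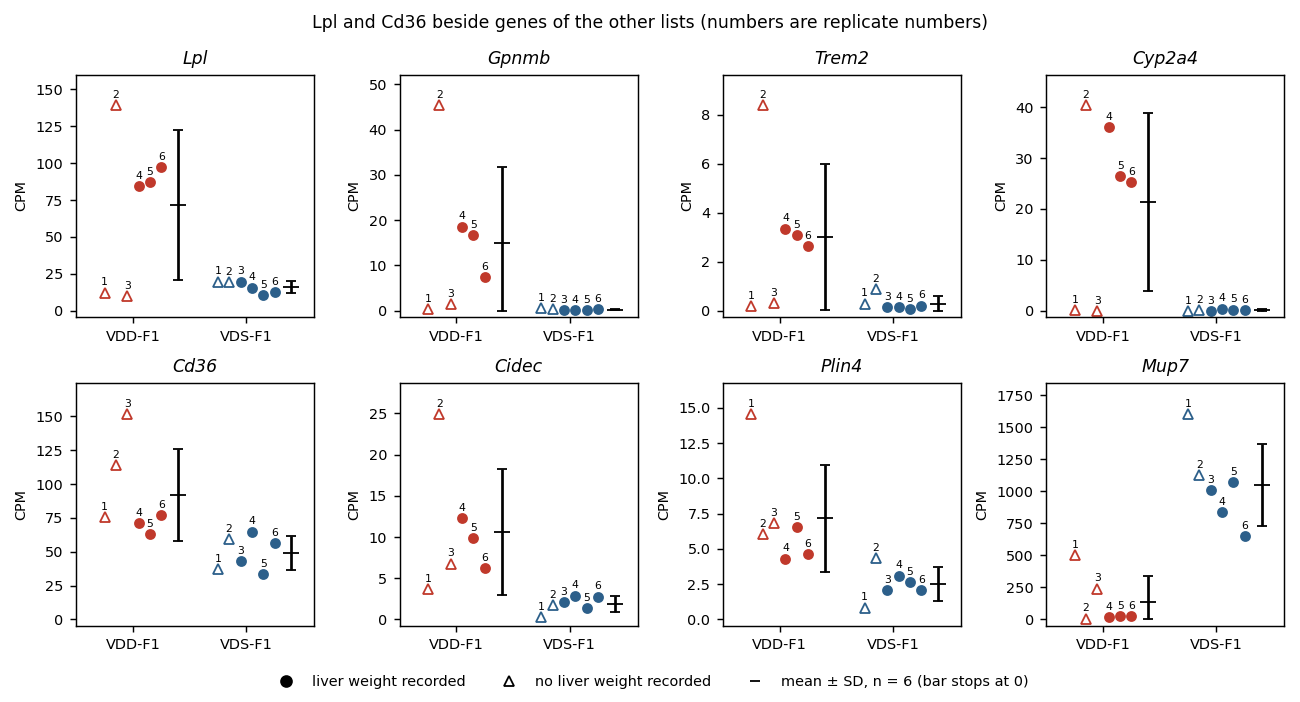
CPM per mouse of Lpl, Cd36, the recruited macrophage markers Gpnmb and Trem2, the lipid droplet genes Cidec and Plin4, the female-biased Cyp2a4 and the male-biased Mup7, with VDD-F1 and VDS-F1 side by side and the mean ± SD of each group (n = 6, lower bars end at 0). Circles are mice with a recorded liver weight and triangles mice without. Lpl, Gpnmb and Cyp2a4 are high in the same 4 VDD-F1 livers.

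Around the members, 77 related genes of 8 lists were followed, of which 63 were tested. None was called by edgeR, where 0.0402% of all genes were. At an unadjusted p under 0.05, 4 were higher in VDD-F1 against 9.55% of all genes, and 7 were lower against 6.29% of all genes. A negative log2-fold change was found for 42 of the 63 and for 6124 of the 12453 genes tested, and the medians were -0.095 and 0.0041. DESeq2 called 2, Cidec and Plin4, where it called 2.03% of all genes.

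Of the 4 other transport proteins 2 were tested, Slc27a4 and Slc27a1, both at a log2-fold change of -0.17 (edgeR adjusted p of 0.459 and 0.709). Of the 6 other binding proteins Fabp5 and Fabp7 were tested, with 0 at an unadjusted p under 0.05, and Fabp6 had 0 counts in every library. Of the acyl-CoA synthetases, which trap fatty acids in the cell, 4 of 5 were tested. Acsl4, which prefers arachidonic acid, was 135.7 ± 26.1 CPM in VDD-F1 and 92.8 ± 10.1 CPM in VDS-F1 (SD, n = 6 each). Its log2-fold change was 0.55, with an edgeR adjusted p of 0.0855. Acsl1, the main form of liver, had a log2-fold change of -0.43 (edgeR adjusted p = 0.284).

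For the partners of lipoprotein lipase and the other lipases, 12 of 13 were tested and 9 had a negative log2-fold change, with a median of -0.21. In all, 3 had an unadjusted p under 0.05, all lower in VDD-F1, where 6.29% of all genes were. Lipc, the hepatic lipase, was 87.9 ± 15.9 CPM in VDD-F1 and 126 ± 13.7 CPM in VDS-F1, a log2-fold change of -0.52 with an edgeR adjusted p of 0.0855. Lmf1 and Sel1l, which the cell needs to mature lipoprotein lipase, had log2-fold changes of -0.34 and -0.29 (edgeR adjusted p of 0.220 and 0.272).

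Of the other lipoprotein receptors 6 of 7 were tested, and Sdc1, a proteoglycan that binds remnant particles, had a log2-fold change of 0.38 (edgeR adjusted p = 0.295). Lrp1, a receptor for remnant particles, had -0.23 (edgeR adjusted p = 0.340). In triglyceride synthesis 7 of 8 genes were tested and 6 had a negative log2-fold change. Dgat2 and Dgat1, which add the last acyl chain, had -0.39 and -0.20 (edgeR adjusted p of 0.235 and 0.374).

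All 14 partners and relatives of Pparg were tested, and 12 had a negative log2-fold change, with a median of -0.092. Rxra, the main partner of liver, had -0.20, the coactivator Med1 -0.21 and the corepressor Ncor1 -0.21, with edgeR adjusted p of 0.320, 0.266 and 0.331.

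Of 20 other known targets of Pparg 16 were tested, 9 with a positive and 7 with a negative log2-fold change, and the median was 0.046. Cidec, a protein that fuses lipid droplets, was 10.6 ± 7.62 CPM in VDD-F1 and 1.87 ± 0.972 CPM in VDS-F1 (SD, n = 6 each). Its log2-fold change was 2.52, with an edgeR adjusted p of 0.0640 (DESeq2 adjusted p = 0.0013). Plin4, a lipid droplet coat protein, was 7.17 ± 3.76 and 2.51 ± 1.18 CPM, a log2-fold change of 1.51 with an edgeR adjusted p of 0.0905 (DESeq2 adjusted p = 0.0039). Cidec was 3.66 CPM or more in every VDD-F1 liver, VDD1 and VDD3 included, and at most 2.91 CPM in VDS-F1. Its groups thus did not overlap, as was so for 1.18% of all genes tested. Gpd1, glycerol-3-phosphate dehydrogenase, had a log2-fold change of -0.36 (edgeR adjusted p = 0.286).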

How the data were processed

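Liver RNA of 12 mice was sequenced after removal of ribosomal RNA, with 1 library per mouse. The authors trimmed the reads, aligned them to mm10 with STAR (version not given in the sources used here) and deposited, per gene and mouse, the raw count of fragments. Of the count columns, the reverse-strand one was used, because the kit keeps the strand and it held 92.7% to 95.8% of stranded counts. Rows of unmapped, multimapping and ambiguous (1.33% to 2.13% of fragments) fragments stayed out of library sizes. So did fragments that met no annotated exon on that strand (2.52% to 11.1%). Symbols and positions come from GENCODE M21 (GRCm38), a later release than the authors' M15, and 52489 of 52636 IDs matched. Pparg, Mogat1, Fabp2 and Slc27a2 overlap genes on the other strand, which the stranded count separates.

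The groups were compared by edgeR 4.0.16 in R 4.3.3 (TMM, quasi-likelihood test, Benjamini-Hochberg) after dropping genes whose mean count was under 12. The test gives no standard error, so the SE is the absolute log2-fold change divided by the square root of the test's F statistic. Calls needed an adjusted p under 0.05 and a log2-fold change beyond 1 in either direction. The study used DESeq2 with these thresholds. DESeq2 1.42.0, limma 3.58.1 (voom with sample quality weights), other filters and scalings, the unstranded count, each set of mice, the set as covariate, a replicate block and each mouse left out were alternatives. On simulated data for this comparison (12453 genes, 200 changed), edgeR recovered 186 with 6 false calls, DESeq2 190 with 10 and voom 181 with 6. On the data of the mice, edgeR called 5 genes, DESeq2 253 and voom 252. Recovery for genes split within a diet, as Lpl was, was not tested. The permutation test was coded in Python 3.11.15 with NumPy 2.4.6. Depth limits low genes: Mogat1 rests on 0 to 31 counts per library.

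The members and lists were chosen with earlier results of these data known. All members are named, and from each list up to 3 tested genes with the smallest p and those with 0 counts throughout. Of the genes so chosen, 1 is not reported here. Adipoq, Mup7, Gpam and Lpin1 were named outside this rule, after their values were seen. All 6 recruited macrophage markers are also named, which is more than the 3 that the rule allows.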

Additional observations from a re-analysis of the deposited data

Results flagged for a closer look

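In each of 20 groups (10 members by 2 diets) the gap of the highest and the lowest liver to its neighbour was set against the group's range, and chance exceeds the critical value of Dixon's test in about 1 of 20 groups. It did so in 2 groups, both through VDS2. VDS2 had the highest Fabp4 of VDS-F1, at 6.54 CPM with the next at 4.26 CPM. It also had the lowest Slc27a5 of VDS-F1, at 808 CPM with the next at 904 CPM.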

How the results depend on the processing

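Cd36, Pparg, Fabp2, Vldlr and Slc27a5 kept their direction and their side of the threshold under all 24 alternatives. Members called numbered 0 in the comparison as reported and 1, Lpl each time, with DESeq2, with voom and sample quality weights, with no filter on low counts and in the 7 mice with a recorded liver weight. Leaving out 1 mouse at a time gave 0 to 1, with 1 without VDD1 or VDD3. Members at an unadjusted p under 0.05 numbered 3 as reported (15.8% of all genes), 5 in the 7 mice (25.5%) and 3 to 5 with 1 mouse left out (12.4% to 18.8%). Related genes called numbered 0 as reported, 2 with DESeq2, 2 with voom, 1 with no filter, 4 in the 7 mice and 0 to 1 with 1 mouse left out. Over all genes, calls numbered 5 as reported, 253 with DESeq2, 252 with voom, 70 with no filter, 21 with the set of mice as covariate, 17 with the newer edgeR form, 536 in the 7 mice, 0 in the 5 and 0 to 260 with 1 mouse left out. The cause of these differences was not tested.

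The sign turned for Fabp1 with voom (-0.12), in the 7 mice (-0.30) and on leaving out 1 mouse (log2-fold changes of -0.081 to 0.12, negative without VDD1, VDD3 or VDS1). It turned for Fabp4 (-0.027) and Slc27a2 (0.034) in the other 5 mice. With 1 mouse left out, log2-fold changes were 1.84 to 2.37 for Lpl (adjusted p of 0.0145 to 0.208), 0.71 to 1.001 for Cd36 and 0.45 to 0.71 for Pparg. Without VDD2 and VDS6 together, chosen after the data had been seen, Lpl had 1.78 (adjusted p = 0.245) and Cd36 0.88 (adjusted p = 0.216).

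The replicate numbers are shared by the 2 groups but mark different mice. Deviations of same-numbered mice correlated at -0.0762 to 0.103, with 1 of 6 pairs over 0.1, and 0 of 12 libraries correlated best with its own number, so the numbers were not taken to pair the mice. With a replicate block, 0 members and 1 related gene were called, 4 members and 14.4% of all genes had an unadjusted p under 0.05, 17 genes were called in all, and Lpl had a log2-fold change of 1.74 (adjusted p = 0.260).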

Other observations

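Among the related genes, 3 are named after their values were seen, for levels that were high in mice of both diets or in a few mice of 1 diet. The livers high in Fabp5 and Gpam all belong to the 5 mice that have no liver weight on record, and both genes were among the 111 of 12453 called by edgeR between the sets of mice with diet in the model, a comparison added after the data had been seen. Fabp5, a binding protein of epidermis and macrophages, was 99.2 CPM in VDD1, 49.9 in VDD3, 66.0 in VDS1 and 62.7 in VDS2, and 8.94 to 19.7 CPM in the other 8 livers. Gpam, which starts glycerolipid synthesis, was 663 CPM in VDD1, 799 in VDD3 and 1118 in VDS2, against 199 to 353 CPM in the other 9. Lpin1, a phosphatidate phosphatase, was 770 CPM in VDD1 and 973 in VDD3 but 34.9 to 216 CPM in the other 4 VDD-F1 livers, and 128 to 627 CPM in VDS-F1.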
